A study of Mesocricetus auratus with 10 samples.

Results

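Collagens, laminins and integrins are described here through every probe whose gene name on the array begins as a collagen chain (COL, number, A, number), a laminin chain (LAMA, LAMB or LAMC with a number) or an integrin alpha or beta chain (ITGA or ITGB). Of 116452 probes on the array, 484 met this rule, and they stood for 73 of the 14434 gene names. The rule takes names by their spelling and uses no measured value, but it was set with earlier results of these data known. The samples were livers of 10 male golden hamsters, Mesocricetus auratus, on a high fat diet (HFD), and their comparison RNA was 1 pool made from the livers of 10 hamsters on a standard diet (STD). The RNA of each HFD animal met that pool on 2 custom Agilent arrays with the Cy3 and Cy5 dyes exchanged, which gave 20 arrays and 10 biological replicates. The sources used here do not give the composition of either diet, its duration or the age of the animals. The pool is 1 RNA and was taken as fixed, so the spread between STD animals does not enter any test. The direction of every ratio rests on the dye order written in the array names.

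Collagens are trimers whose chains wind into a triple helix, which requires a repeat of glycine and 2 further residues. The fibrillar types I, III and V carry tension in interstitial matrix, whereas type IV collagen and the laminins, trimers of an alpha, a beta and a gamma chain, build basement membranes. Integrins are cell-surface receptors made of an alpha and a beta chain that bind collagens, laminins, fibronectin or vitronectin outside the cell and the actin skeleton inside it. In liver, hepatic stellate cells and portal fibroblasts are known as the main makers of fibrillar collagen, and leukocytes carry integrins of their own.

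Probes are 60 bases long, and 17 of them are shown because the results below turn on them. The first set is from the triple helix of collagens. Capitals mark the glycine codons, which begin with GG, where the probe as printed reads 1 glycine in every 3 codons, evenly spaced and without a stop codon. Each is named by its gene and the leading part of its identifier on the array.
COL27A1 CUST_94490: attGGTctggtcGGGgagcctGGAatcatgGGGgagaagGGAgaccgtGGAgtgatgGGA
COL27A1 CUST_94493: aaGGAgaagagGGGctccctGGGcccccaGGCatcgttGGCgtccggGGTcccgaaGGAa
COL3A1 CUST_92803: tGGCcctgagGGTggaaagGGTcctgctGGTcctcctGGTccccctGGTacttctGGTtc
COL18A1 CUST_35026: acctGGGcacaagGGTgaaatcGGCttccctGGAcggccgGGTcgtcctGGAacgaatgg

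The second set reads the same pattern only on the reverse complement, so that capitals mark the complement of each glycine codon, which ends in CC. These probes show that the array holds collagen probes of both strands.
COL5A2 CUST_72859: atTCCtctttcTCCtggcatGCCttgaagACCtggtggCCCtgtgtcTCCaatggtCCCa
COL5A2 CUST_72858: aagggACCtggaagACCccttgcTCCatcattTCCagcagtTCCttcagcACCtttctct
COL6A1 CUST_370: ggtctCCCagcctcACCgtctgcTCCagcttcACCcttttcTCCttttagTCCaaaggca
COL6A1 CUST_371: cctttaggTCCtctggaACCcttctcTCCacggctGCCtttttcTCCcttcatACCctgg

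The third set has no such pattern and holds probes of 1 gene that gave different ratios, or that decided the result of their gene.
COL27A1 CUST_64735: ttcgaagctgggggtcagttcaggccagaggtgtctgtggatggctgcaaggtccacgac
COL1A1 CUST_35820: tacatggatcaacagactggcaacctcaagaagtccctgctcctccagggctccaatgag
COL1A1 CUST_35821: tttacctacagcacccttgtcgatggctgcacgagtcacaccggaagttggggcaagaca
COL14A1 CUST_73276: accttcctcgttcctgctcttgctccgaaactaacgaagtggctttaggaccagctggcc
ITGB5 CUST_528: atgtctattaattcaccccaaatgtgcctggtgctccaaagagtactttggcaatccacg
ITGAL CUST_99097: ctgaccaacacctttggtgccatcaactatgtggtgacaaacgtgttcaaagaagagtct
ITGAL CUST_99103: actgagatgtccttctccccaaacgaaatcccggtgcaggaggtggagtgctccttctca
ITGB1 CUST_84122: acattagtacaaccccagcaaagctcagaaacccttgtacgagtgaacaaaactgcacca
ITGB1 CUST_84129: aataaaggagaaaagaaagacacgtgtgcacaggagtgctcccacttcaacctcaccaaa

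Of the 484 probes, 434 passed the filter on dim probes, which asked for a signal well above background in either RNA on no fewer than 10 of the 20 arrays. These covered 69 genes. ITGA2, ITGB8 and LAMA1 were among the genes that had no such probe and were not tested. A gene was represented by its brightest probe, and the log2 ratio of HFD liver over the STD pool, averaged over the 2 arrays of an animal, was tested against 0 with limma across all 13827 genes that passed (two-sided, Benjamini-Hochberg threshold 0.05). Values are means ± SD over the 10 animals. For 61 of the 69 genes the probe was well above background on all 20 arrays in both RNAs. The number of arrays limits the precision.

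Before the results, 1 feature of the arrays has to be given. For animals 5 to 10, the 6 arrays that carried HFD RNA in Cy3 stood apart. Across genes, arrays of different animals correlated with each other at between 0.838 and 0.926 within these 6. The range was 0.293 to 0.808 within the other 14 and 0.372 to 0.785 between the 2 sets. The 6 share 1 dye orientation, whereas the 14 hold both. Within HFD in Cy5 the range was 0.530 to 0.808, and between the orientations it was 0.293 to 0.685. Calls that were lost or gained without these 6 arrays are given both ways below for the genes named by a fixed rule, from a fit on the other 14 with terms for dye and animal. Scanning took 3 sessions, and the ratios within sessions 1 and 3 are given for the leading genes. Session 2 held 1 array and gives no value of its own.

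Some matrix and integrin genes were higher and others lower in HFD liver, by modest amounts. By the brightest probe, 32 of 69 genes differed from the STD pool (46.4%), where 60.3% of all genes tested were called. Higher in HFD liver were 21 genes, or 30.4%, against 31.4% of all genes. Lower were 11 genes, or 15.9%, against 28.9% of all genes. No gene reached a 2-fold difference, 9 of the 32 had a mean log2 ratio of at least 0.3 in size, and 14 of the 32 lay on 1 side of the pool in all 10 animals. The median log2 ratio was 0.027 over the 69 genes and 0.0082 over all genes, and the median size among called genes was 0.17 here and 0.19 over all genes. In bulk tissue, more or fewer cells of a type and more or less RNA per cell cannot be told apart.

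The split of calls depended on the dye orientation. With HFD RNA in Cy5, 24 genes were higher and 6 lower, where 29.5% and 22.3% of all genes were called higher and lower in the same fit. With HFD RNA in Cy3, 20 were higher and 20 lower, where 30.8% and 32.3% of all genes were. Both orientations gave the same sign for 29 of the 32 called genes. The 3 others were COL6A1, ITGA9 and COL11A1. Without the 6 arrays set apart, 17 genes were higher and 7 lower, where 24.9% and 18.3% of all genes were. Within scan session 1, 18 were higher and 8 lower, where 28.3% and 24.5% of all genes were. Within session 3, 13 were higher and 8 lower, where 19.8% and 17.1% of all genes were.

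**Figure D1:**
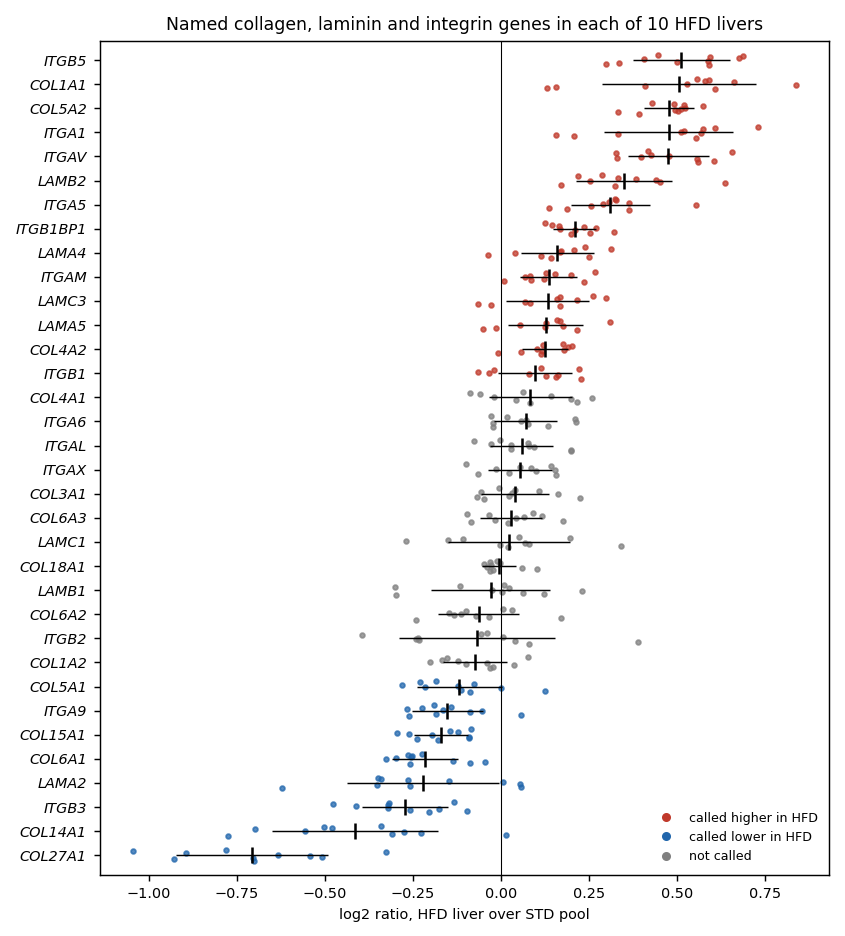
Log2 ratio of HFD liver over the STD pool (x axis) for the 34 named genes (y axis, ordered by mean). Each point is 1 of 10 HFD animals, the black tick is the mean and the bar 1 SD. Colours give the limma call over all genes. COL27A1 is below 0 in every animal, and ITGB5, COL1A1, COL5A2, ITGA1 and ITGAV are above 0 in every animal.

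Fibril-forming collagens split by chain. Of 9 tested, 4 were higher and 2 lower in HFD liver, where 31.4% and 28.9% of all genes were. The subfamilies are small, and none of their counts was tested against these shares. COL1A1, the major chain of type I collagen, was between 0.13 and 0.84 with a median of 0.57 on the log2 scale over the 10 HFD animals. All animals were above the pool, and 2 of them were well below the rest. The mean was 0.51 ± 0.22, a 1.42-fold rise (adjusted p = 1.25e-05, limma), and it was 0.25 without the 6 arrays set apart (adjusted p = 0.0275). Within sessions 1 and 3 the mean was 0.59 and 0.40. COL1A1 CUST_35820, shown above, carried this call alone: the neighbouring CUST_35821 of the same assembled transcript had a mean of -0.09 ± 0.23 and the remaining probe 0.046 ± 0.15, neither of them called. Its partner chain in type I collagen, COL1A2, did not pass the test at -0.072 ± 0.091 (adjusted p = 0.0523), with 2 of 10 animals above 0. COL3A1, the chain of type III collagen, gave 0.041 ± 0.10 (adjusted p = 0.279), with animals on both sides of 0, and 0.082 without the 6 arrays set apart (adjusted p = 0.0786).

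Type V collagen, which helps to set the diameter of type I fibrils, had chains called in opposite directions. COL5A2 was between 0.33 and 0.57 with a median of 0.50 in HFD animals, and all 10 were above the pool. Its mean of 0.48 ± 0.072 was a 1.39-fold rise (adjusted p = 1.45e-08, limma), and it was 0.40 without the 6 arrays set apart. COL5A3 was also higher, at 0.19 ± 0.10. COL5A1 was lower at -0.12 ± 0.12 (adjusted p = 0.0128), a call that was lost without the 6 arrays, where the mean was 0.0054 (adjusted p = 0.919). The brightest COL5A2 and COL5A3 probes read the glycine repeat only as the reverse complement. The brightest COL5A1 probe had no such reading, and the 11 COL5A1 probes with one read as printed. As the strand of the labelled RNA is not given, the opposite calls cannot be taken as a contrast between the chains. COL11A1, a minor fibrillar chain best known from cartilage, was called higher at 0.14 ± 0.13, with 0.30 on the arrays with HFD in Cy3 and -0.018 with HFD in Cy5.

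COL27A1, a fibrillar collagen known from developing cartilage, had the largest difference of any collagen, laminin or integrin gene and ranked 303 of 13827 by size. In HFD animals its log2 ratio was between -1.05 and -0.33 with a median of -0.70. No animal was at or above the pool. The mean was -0.71 ± 0.22, or 0.612 times the pool (adjusted p = 6.39e-07, limma), it was almost equal in the 2 dye orientations (-0.73 with HFD in Cy5 and -0.68 with HFD in Cy3), and it was -0.67 without the 6 arrays set apart. Within sessions 1 and 3 it was -0.75 and -0.65. Among the member genes COL27A1 was also the one with the most probes that moved 1 way: 17 of its 19 tested probes were lower and none higher.

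Network-forming and basement membrane collagens moved little. Of 10 tested, 2 were higher and 2 lower, beside 31.4% and 28.9% of all genes. COL4A2, which with COL4A1 forms the common type IV collagen of basement membranes, was between -0.0091 and 0.20 with a median of 0.12 in HFD animals, and 9 of 10 were above the pool. Its mean of 0.13 ± 0.066 passed the test (adjusted p = 0.000812, limma), and without the 6 arrays set apart it was 0.050 (adjusted p = 0.338). COL4A1 gave 0.084 ± 0.12 and did not pass (adjusted p = 0.0602), but it passed without those arrays at 0.15 (adjusted p = 0.0054). COL4A6 was called higher at 0.062 ± 0.067 and COL4A3 lower at -0.087 ± 0.088, both minor chains of type IV collagen. COL15A1, a collagen at the edge of basement membranes, was lower in all 10 animals, with a mean of -0.17 ± 0.076 (adjusted p = 0.000133), but the mean was -0.34 on the arrays with HFD in Cy3 and -0.0025 with HFD in Cy5. It was the only called probe of 6 for COL15A1, and averaged over all 6 the ratio was -0.036 and not called (adjusted p = 0.213). COL18A1, whose C-terminal fragment is endostatin, stood at -0.0048 ± 0.048 (adjusted p = 0.866).

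Of the 6 beaded filament and anchoring collagens, 3 were higher and 1 lower, beside 31.4% and 28.9% of all genes. COL6A1, a chain of the type VI microfibrils that surround cells, was below the pool in all 10 animals, between -0.33 and -0.045 with a median of -0.25, and had a mean of -0.22 ± 0.093 (adjusted p = 5.21e-05, limma). That mean joined orientations of opposite sign, 0.089 with HFD in Cy5 and -0.52 with HFD in Cy3, and without the 6 arrays set apart it was -0.13 (adjusted p = 0.00322). Averaged over its 7 probes COL6A1 was at -0.010 and not called (adjusted p = 0.582). Its partner chains COL6A2 (-0.064 ± 0.11) and COL6A3 (0.028 ± 0.088) did not pass. The 3 higher ones were COL7A1, the anchoring fibril collagen, at 0.17 ± 0.11, COL6A5 at 0.15 ± 0.080 and COL6A6 at 0.12 ± 0.12. Of the 7 COL7A1 probes 1 other was called lower, at -0.095. The COL6A5 probe was well above background on 10 arrays in HFD RNA and on 2 in the pool, so it entered the test only through the RNA where it was higher. Its call is therefore no support for a difference, and without it 20 member genes were higher.

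Collagens that sit on the surface of fibrils (FACIT) held 2 lower and no higher genes among 6, and the 3 transmembrane collagens held no called gene. Of all genes, 28.9% were lower and 31.4% higher. COL14A1, a fibril-associated collagen that binds type I fibrils, was between -0.77 and 0.014 with a median of -0.41 in HFD animals, and 1 animal was above the pool. Its mean was -0.41 ± 0.24 (adjusted p = 0.00011, limma), and -0.25 without the 6 arrays set apart (adjusted p = 0.0127). Most other COL14A1 probes pointed the other way, as described below. COL16A1 was the other lower gene of this group, at -0.14 ± 0.11.

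Of 9 laminin chains tested, 4 were higher and 1 was lower in HFD liver, beside 31.4% and 28.9% of all genes. LAMB2, the beta chain of laminins found in vessel walls and kidney among other sites, was between 0.17 and 0.64 with a median of 0.33 in HFD animals, and none was below the pool. Its mean of 0.35 ± 0.14 was a 1.27-fold rise (adjusted p = 8.76e-06, limma), and it was 0.42 without the 6 arrays set apart. Of its 3 tested probes the 2 others stood at 0.029 and 0.032 and were not called. LAMA4, an alpha chain of blood vessel laminins, was higher at 0.16 ± 0.10, LAMC3, a gamma chain, at 0.13 ± 0.12, and LAMA5, the widespread alpha chain of mature basement membranes, at 0.13 ± 0.11. For LAMA5 and LAMC3 the call was lost without the 6 arrays set apart, at 0.062 (adjusted p = 0.289) and 0.083 (adjusted p = 0.149). Averaged over all 6 of its probes, LAMA5 was at 0.0097 and not called (adjusted p = 0.642).

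LAMA2, the alpha chain best known from muscle, was the lower laminin, with animals between -0.62 and 0.057, a median of -0.26 and a mean of -0.22 ± 0.22 (adjusted p = 0.00595, limma). Animals lay on both sides of the pool, 3 above it and 7 below. This was the only called probe of 13 for LAMA2, whose mean over all probes was -0.041 (adjusted p = 0.364). The call was also lost with HFD in Cy3, at -0.14 (adjusted p = 0.113), and within session 1, at -0.18 (adjusted p = 0.073). LAMB1, the common beta chain, was at -0.029 ± 0.17 and was not called. LAMC1, the gamma chain shared by most laminins, was at 0.023 ± 0.17 and was not called either. In the 2 orientations LAMC1 passed the test with opposite signs, 0.29 with HFD in Cy5 and -0.25 with HFD in Cy3, and without the 6 arrays set apart it passed at 0.14 (adjusted p = 0.0262).

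**Figure D2:**
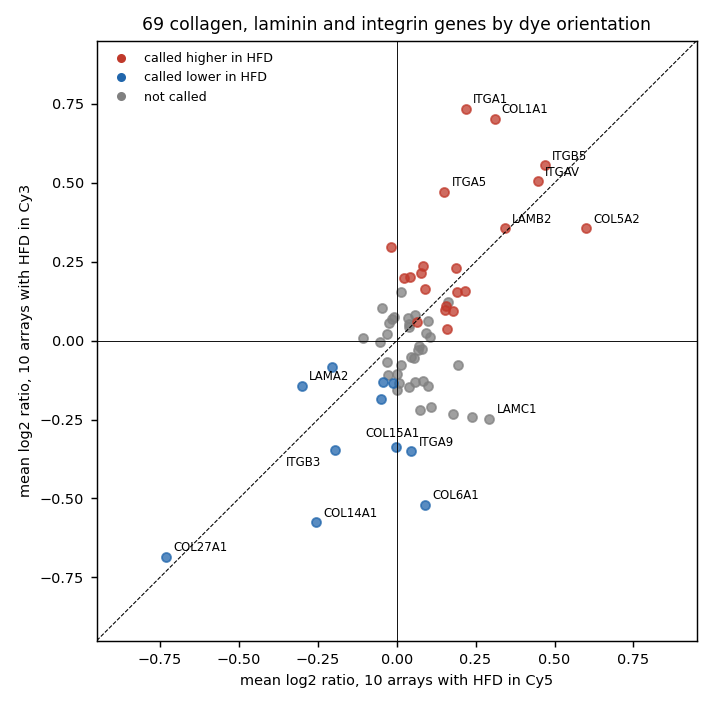
Mean log2 ratio of HFD liver over the STD pool for the 69 tested genes on the 10 arrays with HFD RNA in Cy5 (x axis) and on the 10 with HFD RNA in Cy3 (y axis), with the line of equal values dashed. Colours give the call of the fit over both orientations. COL27A1, LAMB2, ITGAV and ITGB5 lie close to the line, while COL6A1 and LAMC1 lie in a quadrant where the 2 orientations have opposite signs.

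Among the receptors, 7 integrin chains were higher and 3 lower of 22 tested, where 31.4% and 28.9% of all genes were. ITGAV, the alpha chain of receptors for vitronectin, fibronectin and latent TGF-beta, was between 0.33 and 0.66 with a median of 0.45 in HFD animals. Every animal was above the pool. Its mean of 0.48 ± 0.11 was a 1.39-fold rise (adjusted p = 1.99e-07, limma), and it was 0.45 without the 6 arrays set apart. All 3 ITGAV probes were called higher, at 0.24, 0.41 and 0.48.

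ITGB5, one of the beta chains that pair with ITGAV, was between 0.30 and 0.69 with a median of 0.54 in HFD animals. Again no animal was below the pool. Its mean was 0.51 ± 0.14, a 1.43-fold rise (adjusted p = 3.59e-07, limma), 0.46 without the 6 arrays set apart, and 0.57 and 0.44 within sessions 1 and 3. The probe shown above as CUST_528 carries this value. It was the only ITGB5 probe of its assembled transcript, and of the 6 probes on the other transcript 2 were called higher, both at 0.25, and 4 were not called.

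ITGA1 and ITGA5 were called higher by their brightest probes. ITGA1, which with ITGB1 forms a collagen receptor, was between 0.16 and 0.73 with a median of 0.54 in HFD animals, all above the pool. Its mean was 0.48 ± 0.18 (adjusted p = 5.66e-06, limma), and 0.32 without the 6 arrays set apart. The only other ITGA1 probe was called lower, at -0.12. ITGA5, the alpha chain of the fibronectin receptor, was between 0.14 and 0.55 with a median of 0.32, also above the pool in all 10 animals. Its mean was 0.31 ± 0.11 (adjusted p = 7.15e-06), and 0.22 without the 6 arrays. Of 11 ITGA5 probes 3 were higher and 8 not called, with a median of 0.037, and their average was 0.066 (adjusted p = 0.0101). ITGA10, another collagen receptor chain, was called higher at 0.11 ± 0.11. ITGA6, a laminin receptor chain, did not pass at 0.071 ± 0.090 (adjusted p = 0.0567), and ITGA3, another, was called lower at -0.074 ± 0.088. Of the 7 ITGA3 probes 1 other was called higher, at 0.099.

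ITGB1, the beta chain shared by most matrix receptors, was called higher at 0.097 ± 0.10 (adjusted p = 0.0215, limma), with 7 of 10 animals above the pool. Without animal 1 or without animal 9 that call was lost, at 0.083 each (adjusted p = 0.0515 and 0.0531). Without the 6 arrays set apart ITGB1 was at 0.16 (adjusted p = 0.0072). ITGB3, the beta chain of the platelet fibrinogen receptor and another partner of ITGAV, was lower in all 10 animals, between -0.48 and -0.10 with a median of -0.29. Its mean was -0.27 ± 0.12 (adjusted p = 3.6e-05), and -0.15 without the 6 arrays set apart (adjusted p = 0.013). Of the 10 ITGB3 probes tested, this was the only lower one, while 2 were called higher.

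The group of leukocyte alpha chains, taken with ITGA4 and ITGA9, had 1 higher and 1 lower gene among 5, beside 31.4% and 28.9% of all genes. The lower one was ITGA9. ITGA4 was not called by its brightest probe at -0.078 ± 0.11, whereas 3 of its 5 probes were called higher and none lower. ITGAM, the alpha chain of the myeloid receptor Mac-1, was between 0.0074 and 0.27 with a median of 0.13 in HFD animals, all above the pool. Its mean was 0.14 ± 0.080 (adjusted p = 0.000949, limma), and 0.094 within session 3, where it was not called (adjusted p = 0.154). Of the 9 ITGAM probes 2 were higher, 1 was lower and 6 were not called, and their average was 0.025 (adjusted p = 0.371). ITGAX, a chain of myeloid and dendritic cells, gave 0.054 ± 0.091, and ITGB2, the beta chain shared by ITGAL, ITGAM and ITGAX, gave -0.069 ± 0.22, with animals between -0.39 and 0.39. Neither was called, and without the 6 arrays set apart ITGB2 was at 0.050 (adjusted p = 0.545). ITGA9, an alpha chain that binds tenascin and osteopontin, was lower at -0.15 ± 0.10 (adjusted p = 0.00116). Its mean was -0.35 with HFD in Cy3 and 0.046 with HFD in Cy5, and without the 6 arrays set apart it was -0.049 and not called (adjusted p = 0.467). Averaged over its 5 probes it was at -0.0061 (adjusted p = 0.799).

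ITGAL, the alpha chain of the lymphocyte receptor LFA-1, was not called by its brightest probe, CUST_99103, at 0.060 ± 0.089 (adjusted p = 0.1), though it passed without the 6 arrays set apart at 0.13 (adjusted p = 0.00557). The other 10 probes of ITGAL were all called higher in HFD liver. They lay on the same assembled transcript, with means from 0.25 to 0.61, the highest at CUST_99097 with 0.61 ± 0.28. Only the brightest probe, then, was close to the pool.

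The rule by spelling also took in 4 genes that are no matrix or receptor chains. ITGB1BP1, which binds the inner tail of integrin beta 1, was between 0.12 and 0.32 with a median of 0.20 in HFD animals, all above the pool, and had a mean of 0.21 ± 0.061 (adjusted p = 1e-05, limma). All 3 of its probes were called higher, at 0.21 to 0.25. COL4A3BP, the ceramide transfer protein, was not called by its brightest probe at -0.028 ± 0.10, whereas 5 of its 7 probes were called higher, the highest at 0.46. ITGB1BP2 and ITGB1BP3 were not called.

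Every probe was also tested on its own, with adjustment over all 61688 named probes. Of the 434 collagen, laminin and integrin probes, 179 were called (41.2%, where 59.2% of all named probes were). Of these, 102 were higher (23.5% against 31.0% of all probes) and 77 lower (17.7% against 28.2%). Probes of 1 gene were called in both directions for 17 of the 59 genes with at least 2 tested probes (28.8%), where 19.0% of all such genes on the array were. These shares were not matched for probe number, and a gene with more probes can more readily be called both ways. The members had 434 tested probes for 69 genes, and the array 61688 for 13827. Without the 6 arrays set apart, 78 probes were higher and 40 lower, where 23.7% and 18.2% of all probes were. In that fit 4 of the 59 genes had probes called in both directions, where 5.3% of all such genes did.

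The array holds 10 pairs of probes, in 7 of these genes, that carry the same 60 bases under 2 identifiers. The 2 means of a pair differed by 0.0034 to 0.026 on the log2 scale, with a median difference of 0.013, and each of the 10 pairs had the same call. For COL14A1 CUST_73276, shown above, and its copy CUST_78995 the means were 0.221 and 0.225. COL27A1 had a pair at -0.56 and -0.53. Between unlike probes of a gene the range was widest in COL27A1, at 0.69.

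**Figure D3:**
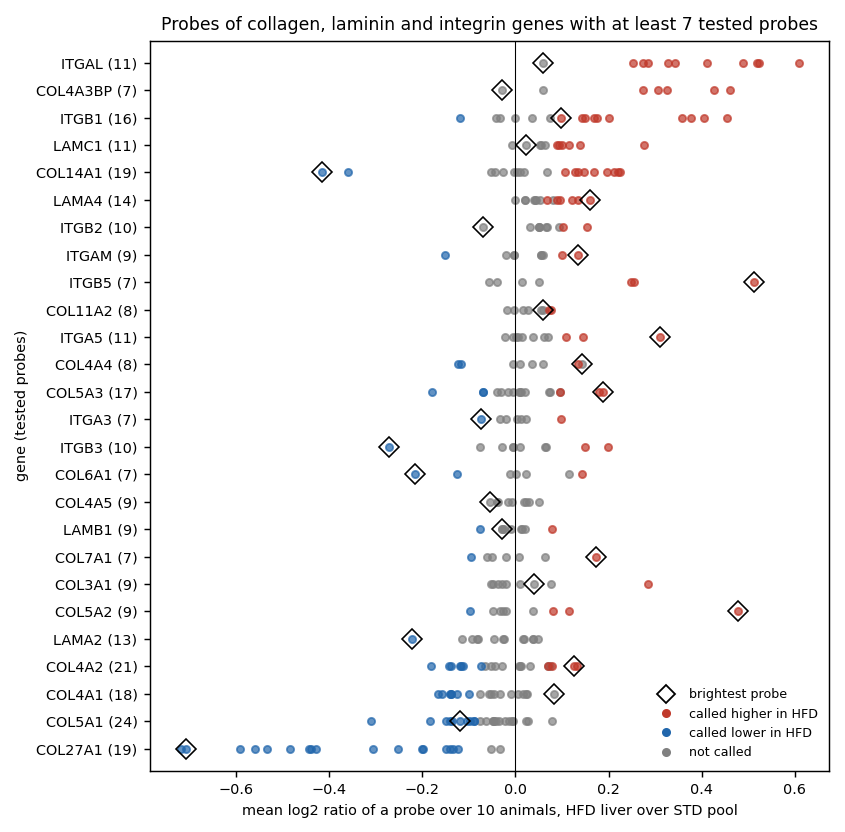
Mean log2 ratio of HFD liver over the STD pool over 10 animals (x axis) for each of the 310 probes of the 26 genes with at least 7 tested probes (y axis, tested probes in brackets, ordered by median). Each point is a probe, coloured by its call in the fit over all named probes, and diamonds mark the brightest probe. The COL27A1 probes lie at or below 0, all but 1 of the ITGAL probes lie at 0.25 or above, and the brightest COL14A1, ITGB3 and COL5A2 probes lie far from most others of their gene.

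Among genes with probes called in both directions, COL14A1 had the widest range. Of its 19 probes 9 were called higher, with means up to 0.22, and 2 lower, at -0.41 and -0.36. The 2 lower probes, the brightest among them, were the only COL14A1 probes of 1 assembled transcript. On the 2 transcripts with 7 probes each, 4 probes were higher and none lower. Averaged over all 19 probes, COL14A1 stood at 0.039 and was not called (adjusted p = 0.235).

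COL18A1 had 2 higher and 3 lower probes of 6, on 4 assembled transcripts. The highest, CUST_35026 with its glycine pattern shown above, was at 0.22 ± 0.070 and above 0 in all 10 animals, and a second stood at 0.16. The 3 lower ones were at -0.40, -0.31 and -0.20. No transcript held probes called both ways.

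COL5A2 had 3 higher probes and 1 lower probe of 9. Its brightest, CUST_72859, was at 0.48, while the next highest was at 0.11, and CUST_72858 on the same transcript was called lower at -0.097. The rise of COL5A2 thus rested mainly on 1 probe, and the mean over all 9 was 0.054 (adjusted p = 0.0037).

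ITGA1 had only 2 probes, on separate transcripts, and they were called in opposite directions at 0.48 and -0.12. ITGB1 had 10 higher probes and 1 lower probe of 16. The highest, CUST_84122, was at 0.45 ± 0.23 and above 0 in all 10 animals. CUST_84129 on the same transcript was at -0.042, and its copy on another transcript at -0.032. All 4 probes of 1 further ITGB1 transcript were higher, from 0.17 to 0.41.

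Other genes showed smaller splits. COL4A1 had 7 lower and no higher probes of 18, although its brightest stood at 0.084, and the mean over all its probes was -0.060 (adjusted p = 0.0445). The 7 lower probes lay on 1 assembled transcript with 15 probes, and the brightest lay on another. A probe of each of these transcripts matched the other over 59 bases on the opposite strand. The mean over all COL4A1 probes therefore joined both strands. COL4A2 had 4 higher and 7 lower of 21, 20 of them on a single transcript. COL5A1 had 10 lower and no higher of 24, and LAMC1 6 higher and no lower of 11. LAMA4 had 6 higher and no lower of 14.

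The glycine pattern tells which strand a collagen probe represents. Of 239 tested collagen probes, 110 from 25 genes read the glycine repeat over their whole length, 49 as printed and 61 as the reverse complement. No assembled transcript had probes of both kinds among the 56 with at least 1 such probe, so the strand went with the transcript. In 8 genes all reads were as printed, in 9 all were reverse complement, and 8 genes held both. The strand of the labelled RNA is not given in the sources used here.

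Collagen probes of both strands were called. As printed, 4 of 49 were higher and 17 lower, where 31.0% and 28.2% of all named probes were. All 11 COL27A1 probes with the pattern read as printed and were lower, from -0.59 at CUST_94490 to -0.13 at CUST_94493, and without COL27A1 4 of 38 were higher and 6 lower. As reverse complement, 10 of 61 were higher and 17 lower, beside the same shares of all named probes. The brightest probes of COL5A2, COL5A3, COL6A1 and COL4A3, which decided the calls of these genes, read as the reverse complement. Those of COL4A2 and COL16A1, also called, had no full reading but lay on transcripts read as the reverse complement. On the printed strand, the brightest COL11A1 probe had the pattern, and those of COL27A1, COL15A1 and COL4A6 lay on transcripts read as printed. COL3A1 had 7 probes with the pattern, all as printed, from -0.052 to 0.041, and none was called. In COL6A1, CUST_370 at -0.22 and CUST_371 at 0.14 were on the same strand and transcript and were called in opposite directions.

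**Figure D4:**
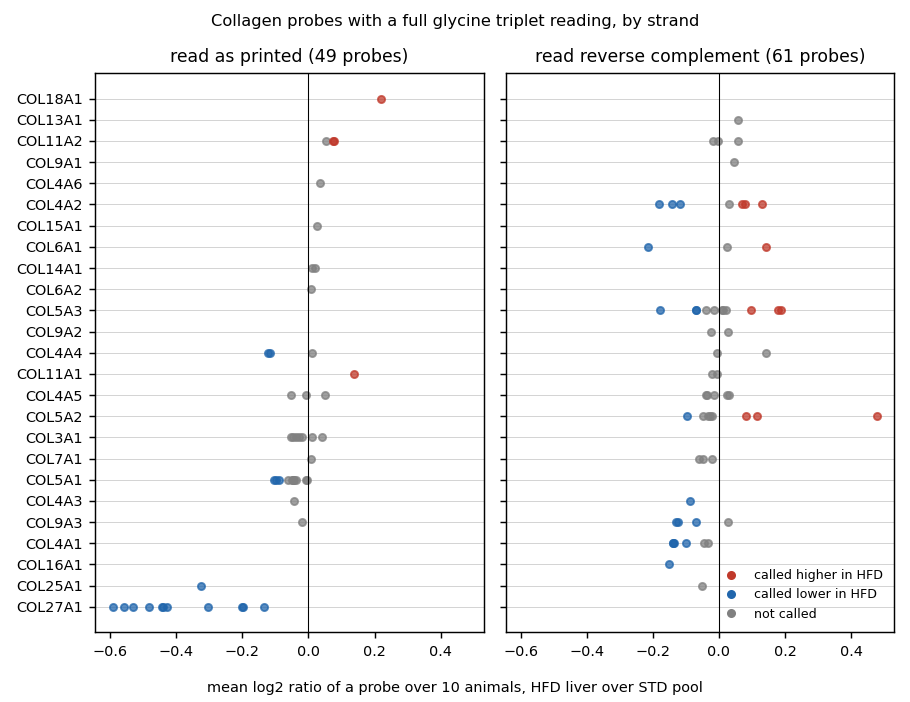
Mean log2 ratio of HFD liver over the STD pool over 10 animals (x axis) for the 110 collagen probes with the glycine repeat, by gene (y axis), in separate panels for probes that read as printed and as the reverse complement. Points are probes, coloured by their call in the fit over all named probes. The COL27A1 probes are all on the left of 0 in the first panel, and the COL5A2 probe at 0.48 stands alone on the right of the second.

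Genes that make and process collagen were called in both directions, 3 higher and 5 lower of 17 tested. These were 17.6% and 29.4%, against 31.4% and 28.9% of all genes. PLOD1, a lysyl hydroxylase of collagen, rose by 0.57 ± 0.12 on the log2 scale in HFD liver, with all 10 animals above the pool. BMP1, the protease that removes the C-terminal propeptide of fibrillar procollagens, was lower at -0.65 ± 0.16, with all 10 animals below it. Partners of collagens and laminins in the matrix had 5 higher and 8 lower of 23 (21.7% and 34.8%). ELN, elastin, was highest at 0.32 ± 0.17, and VTN, the integrin ligand vitronectin, which hepatocytes secrete, was lowest at -0.33 ± 0.11.

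Of the cytoplasmic proteins that join integrins to actin, 10 were higher and 5 lower of 23 tested (43.5% and 21.7%, against 31.4% and 28.9% of all genes). TNS3, a tensin, had the largest rise at 0.88 ± 0.31, above the pool in all 10 animals, and LIMS2, a partner of integrin-linked kinase, the largest fall at -0.33 ± 0.23. Other matrix receptors had 3 higher and 3 lower of 9 (33.3% each), near the shares of all genes. SDC1, a heparan sulfate proteoglycan that binds matrix and lipoproteins at the hepatocyte surface, was highest at 1.32 ± 0.16, and SDC4, a related one of focal adhesions, lowest at -0.29 ± 0.18.

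Marker lists of liver cell types were measured on the same arrays. Of all genes tested, 31.4% were called higher and 28.9% lower. All 13 tested hepatocyte markers were well above background on every array in both RNAs, so the defining markers of the labelled tissue were present. Of these, 1 was higher and 9 lower, with their mean below 0 in all 10 animals (-0.71 to -0.20). Stellate cell and portal fibroblast markers had 5 higher and 4 lower of 13, with animal means from -0.091 to 0.14, RGS5 highest at 0.46 ± 0.30 and TAGLN lowest at -0.41 ± 0.37. Endothelial markers had 4 higher and 3 lower of 11, with animal means from -0.083 to 0.063. Cholangiocyte markers had no higher and 2 lower of 6. Macrophage markers had 5 higher and 3 lower of 10, with animal means from -0.072 to 0.34. Lymphocyte markers had no higher and 7 lower of 9, with animal means from -0.17 to -0.032. The 10 higher ITGAL probes, by contrast, stand for 1 gene on 1 assembled transcript. Neutrophil markers had no higher gene and 1 lower of 3. The part of these cell types in the collagen, laminin and integrin ratios was not tested.

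Over the 34 genes described by rule, 22 were called, and 17 of these were called without the 6 arrays set apart. Direction and call stayed the same under all 26 alternative settings for 9 of the 22: COL27A1, COL1A1, COL5A2, LAMB2, ITGA1, ITGA5, ITGAV, ITGB5 and ITGB1BP1. COL27A1 was the only lower gene among these 9. The COL5A2 call rests on a probe that reads as the reverse complement, whereas the COL27A1 probe lies on a transcript read as printed. Which of these strands pairs with the labelled RNA is not known. Averaged over all probes of a gene, 13 of the 22 were still called in the same direction. By that average most of the 9 were closer to the pool than by their brightest probe, with COL27A1 at -0.34, COL1A1 at 0.15, COL5A2 at 0.054, LAMB2 at 0.14, ITGA1 at 0.18, ITGA5 at 0.066, ITGAV at 0.38 and ITGB5 at 0.14. ITGB1BP1 was at 0.23. The average holds the brightest probe itself, and each other setting again took 1 probe per gene. These settings therefore do not test the probes of a gene against each other. Of the further probes, 16 of 18 in COL27A1 and 2 of 2 in ITGAV and in ITGB1BP1 were called in the direction of their gene. It was 2 of 8 in COL5A2, 2 of 6 in ITGB5 and 2 of 10 in ITGA5. In COL1A1, LAMB2 and ITGA1 none was.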

How the data were processed

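The collagen, laminin and integrin names, and the other gene lists, were chosen with earlier results of these data known. Per the labels' protocols, RNA was purified on columns, and 100 ng of it was labelled with Cy3 or Cy5 by a low-input whole-transcript kit. The deposited spot intensities, in green and red with local background, came from Agilent Feature Extraction 10.7.3.1, per the file headers. The processed intensities in the same deposited tables were background-subtracted and LOWESS dye-normalised, per the file headers. A further table deposited by the authors gives a log2 ratio for every probe and animal. For it the submitters' processing notes name limma, and no further step is given in the sources used here.

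Here limma 3.58.1 (R 4.3.3) corrected mean intensities for background by normexp, offset 50, and normalised each array by loess. Control and outlier spots had weight 0 and were then left out. Spots of a probe were averaged, ratios turned to HFD over STD pool, and the 2 arrays of an animal averaged. A probe passed when well above background in either RNA on at least 10 of 20 arrays, with a value on all. The share of probes well above background ran from 77.2% to 97.7% in HFD RNA and from 76.7% to 96.5% in the pool. Genes were tested by their brightest probe, and probes singly, with lmFit and eBayes against 0.

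Genes named with values were taken by rule. They were the called members with the largest ratios of 1 sign in all animals and the leading called members of each subfamily. A list of main liver chains and the 5 genes with the widest split between probes were also taken. Further members of small groups were added after their values were seen. Of the other lists, the largest rise and fall are named. Gene names are those of the array design, and 70 of the 73 occur among RefSeq symbols of the hamster assembly BCM_Maur_2.0. Probe positions in a genome were not used here. Alternatives were other background corrections, centrings, filters and probe choices, the deposited log2 ratios, single dye orientations, 14 arrays, slide and scan session, and leaving out each animal. The test was tried on simulated ratios with known changes.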

Additional observations from a re-analysis of the deposited data

How the results depend on the processing

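No paired analysis was possible because the 10 HFD animals were compared with 1 pool, which has no replicate numbers. Over the 34 named genes and their alternatives, 778 values kept direction and call, 49 passed the threshold newly and 32 no longer passed. Another 8 turned direction with a call in at least 1 of the compared fits, and 16 values of 8 genes changed sign without a call in either. Averaging all probes of a gene gave COL14A1 0.039 (adjusted p = 0.235), COL4A1 -0.060 (0.0445), COL4A2 -0.022 (0.190) and ITGB3 0.010 (0.802), and it also ended the calls of COL15A1, COL6A1, ITGA9, ITGAM, LAMA2 and LAMA5 (values above), while ITGAL passed at 0.37. With HFD in Cy5 alone, COL6A1 was 0.089 (0.0158) and ITGA9 0.046 (0.490), with HFD in Cy3 alone LAMC1 was -0.25 (0.0130), and on 14 arrays COL5A1 was 0.0054 (0.919). The count of lower genes, 11, became 7 with median centring, 6 with HFD in Cy5 and 20 with HFD in Cy3. In these fits 20.3%, 22.3% and 32.3% of all genes were lower, against 28.9% in the main fit. The count was 7 on 14 arrays, 17 with slide and 21 with scan session as a random block. Of all genes 18.3%, 33.8% and 36.5% were lower there. These block fits take the 2 arrays of an animal as separate. The count of higher genes, 21, became 13 within session 3, where 19.8% of all genes were higher. Of probes, 102 higher became 51 within session 3, where 17.8% of all probes were higher. The 77 lower probes became 43 with HFD in Cy5, 40 on 14 arrays and 34 within session 3. In these fits 24.6%, 18.2% and 15.8% of all probes were lower. Genes with probes called both ways, 17, became 11 with median centring, 7 with HFD in Cy5, 4 on 14 arrays and 3 within session 3. Over all genes with at least 2 tested probes that share fell too. It was 19.0% in the main fit and 15.4%, 11.7%, 5.3% and 4.7% in these fits. Fits on 1 orientation, 1 session or 14 arrays use fewer arrays. Within session 1 COL5A1 (-0.13), ITGB1 (0.080), LAMA2 (-0.18) and LAMC3 (0.11) were no longer called, and within session 3 COL4A2 (0.075), COL5A1 (-0.072), ITGA9 (-0.045), ITGAM (0.094), LAMA4 (0.13) and LAMA5 (0.10) were not. The cause of the other changes was not tested. Leaving out 1 animal gave 20 to 22 higher and 10 to 14 lower genes, 91 to 105 higher and 67 to 83 lower probes, and 14 to 19 genes with probes called both ways. ITGB1 alone among named genes then lost its call, and COL1A2, COL4A1, COL6A2, ITGA6, ITGAL and ITGB2 each passed without 1 animal.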
